A study of Mus musculus and Homo sapiens with 18 samples.

Results

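The comparison described here is between 2 groups of the mouse bladder carcinoma line CUUC-G: 3 libraries of cells given a guide RNA against Igfbp5 (sgIgfbp5) and 3 libraries of cells given a control guide (sgScr). These 6 samples, of 18 in the series, were put in their groups by their labels. The other samples are 3 libraries of each of 4 groups: mouse bladder tumours of an engineered model (GEMM), as controls or relapsed after cisplatin plus gemcitabine, and the human line MGHU3 with or without IGFBP5 targeted. The labels record the tissue of CUUC-G as bladder and its cell line as GEMM. They give no age, sex, strain, alleles or clone number, and they name no promoter that drives the guide or the nuclease. They call the targeted samples knockdowns, whereas the series design calls them knockouts. Nothing in the labels says that the 3 libraries of a group came from separate cultures, so the p-values measure only the spread between these samples, which may be technical.

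Insulin-like growth factors (IGF1 and IGF2) are secreted hormones that signal through the receptor tyrosine kinase IGF1R and through the insulin receptor to PI3K and AKT, and thereby favour growth and survival. A family of secreted binding proteins holds the ligands in the extracellular space and lengthens their life; proteases such as pappalysin release them again. IGFBP5 is one of these binding proteins, is bound by extracellular matrix, and is known from muscle, bone and stromal cells.

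The 6 libraries held between 19210830 and 20729980 estimated counts each. Levels are given as CPM, counts scaled by TMM-adjusted library size, in the order of replicates 1 to 3, and as TPM, which also divides by transcript length, where different genes are compared. Mitochondrially encoded genes took 2.05% to 2.74% of the counts. Cytosolic ribosomal protein genes took 3.96% to 4.92% in the sgScr and 5.53% to 6.44% in the sgIgfbp5 libraries. The first principal component, with 88.6% of the variance, separated the groups. Of the markers listed for immune cells, 10 of 12 stayed under 1 CPM in both groups and those with no count included Ptprc, Cd3e, Adgre1, C1qa and C1qb. The bladder label was met by urothelial markers only in part. Krt5, Upk2 and Upk3a were at 0 counts in all 6 libraries and Epcam and Elf3 were under 1 CPM, while Krt19, Krt8 and Krt18 were present.

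The sgScr cells were closer to the relapsed tumours of the series than to the sgIgfbp5 cells. These tables were made separately, so only levels are compared, over 13903 genes as group means of log2(CPM + 2). Between sgScr cells and relapsed tumours r was 0.995 and 35 genes were 2-fold or more apart, whereas between sgScr and sgIgfbp5 cells r was 0.902 and 2909 genes were. The sgIgfbp5 cells had r of 0.931 with the control tumours, with 2043 genes apart. With the same control tumours, sgScr cells had r of 0.911 and 2351 genes apart, and relapsed tumours 0.916 and 2157. These correlations are across genes, which are not independent replicates. Xist, the RNA of the inactive X chromosome, and Ddx3y, a Y-linked gene, set the control tumours apart from the other groups. On these genes the sgIgfbp5 cells were thus unlike the control tumours. Xist was 340 to 521 CPM in sgScr and 975.2 to 1703 CPM in sgIgfbp5, and Ddx3y had no count in any of these 6 libraries. Scaled by library size, the relapsed tumours had 456 to 492 CPM of Xist and no count of Ddx3y, while the control tumours had 0.0460 to 0.158 CPM of Xist and 70.4 to 77.9 CPM of Ddx3y. Cdsn and Cck, among the genes with the largest differences, split otherwise, with the sgIgfbp5 cells on the side of the control tumours. Cdsn was 676 to 701 CPM in control tumours and 0.827 to 1.24 CPM in relapsed tumours. Cck had no count in control tumours and 100.1 to 107 CPM in relapsed tumours. Tfap2a, also among the largest differences, followed neither split. It was 28.9 to 30.5 CPM in sgIgfbp5 cells, at most 0.101 CPM in control tumours and at most 0.194 CPM in relapsed tumours. Whether the libraries and columns are assigned as the submitters meant cannot be told from the labels.

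Igfbp5 itself was a low transcript in both groups and was lower with sgIgfbp5. The gene (GRCm38 chromosome 1, minus strand) had 20, 51 and 43 estimated counts in the sgScr libraries and 12, 8 and 10 in the sgIgfbp5 libraries. As levels these were 1.04, 2.56 and 2.31 CPM against 0.606, 0.393 and 0.470 CPM, and the groups did not overlap. The log2 fold change was -1.999 ± 0.42 (SE, n = 3 against 3; edgeR quasi-likelihood test, adjusted p = 0.00125). In TPM the means were 0.443 and 0.118, below the means of the other 5 tested binding protein genes, the lowest of which was Igfbp2 with 3.30 and 0.860 TPM. A guide RNA that changes the reading frame need not lower the transcript, so these counts check the labels only in part.

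Across all genes, 14553 passed the filter on low counts and 10305 of them (70.8%) differed at an adjusted p under 0.05. Higher genes with sgIgfbp5 were 36.5% of those tested and lower genes 34.3%, and every count of list members below is to be read against these shares. A difference of at least 2-fold was called for 31.3%, and the CPM values of the groups did not overlap for 73.9%. The median log2 fold change of all genes was 0.06, and scaling by library size alone raised it to 0.17. In such bulk libraries fewer cells of a kind and less RNA per cell cannot be told apart.

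Ligands of the IGF axis fell, whereas the receptors rose or did not pass. Igf2, the growth factor of fetal tissues, was 13.1, 13.7 and 14.3 CPM in sgScr and 4.04, 3.93 and 3.99 CPM in sgIgfbp5. Igf1 went from a mean of 8.003 ± 0.663 to 4.91 ± 0.299 CPM (SD, n = 3), a log2 fold change of -0.71 ± 0.15. That fall depended on the unit, since the mean TPM of Igf1 was 5.42 and 5.76. The insulin receptor Insr rose from 28.3, 23.5 and 21.1 to 94.9, 91.8 and 95.3 CPM. Igf2r, which clears IGF2, rose by 0.41 ± 0.11 on the log2 scale. Igf1r stood at 70.3 ± 7.87 and 77.3 ± 6.72 CPM with overlapping groups (edgeR adjusted p = 0.229).

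All 6 tested binding protein genes of 9 listed passed the test, 4 lower and 2 higher. Igfbp4, an inhibitory binding protein, was the most abundant of them with mean TPM of 459 in sgScr and 720 in sgIgfbp5. Igfbp7, a secreted protein with weak affinity for IGFs, was second in sgScr at 418 TPM and dropped to 54.7 TPM. Its libraries read 261, 292 and 281 CPM against 36.6, 37.2 and 32.6 CPM. Igfbp3, the main carrier of IGFs in serum, rose from 49.5, 49.97 and 49.9 to 138, 155 and 147 CPM. Igfbp6, which prefers IGF2, fell from 120 ± 16.8 to 40.7 ± 3.41 CPM (SD, n = 3), and Igfbp2 fell from 2.70 ± 0.867 to 0.679 ± 0.202 CPM. The sum over the whole family was 1095 TPM in sgScr and 934 TPM in sgIgfbp5.

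The genes that act on the binding proteins moved in both directions, with 2 of 7 tested higher, 3 lower and 2 that did not pass. Pappa, the pappalysin protease that cleaves IGFBP4 and IGFBP5, rose from 0.690 ± 0.178 to 4.36 ± 0.630 CPM (SD, n = 3). Stc1, whose product stanniocalcin inhibits pappalysin, went from 45.8, 42.4 and 40.0 CPM to 0.0505, 0.148 and 0.141 CPM. The related Stc2 was 68.0 ± 2.003 and 62.4 ± 3.34 CPM and did not pass the test (edgeR adjusted p = 0.163). Htra1, a secreted serine protease that also cleaves IGFBP5, rose by 0.44 ± 0.07 on the log2 scale. Adam12, a metalloprotease that cleaves binding proteins as well, fell from 90.6, 76.01 and 64.3 to 3.08, 3.25 and 3.19 CPM, and the lysosomal protease Ctsd fell by 0.53 ± 0.07 on the log2 scale.

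Inside the cell, the adaptor Irs2 rose from 24.8, 25.6 and 19.5 to 39.8, 43.6 and 51.3 CPM, while Irs1 was 60.7 ± 13.6 and 59.2 ± 8.87 CPM with overlapping groups. The adaptor Grb14, which binds and inhibits the insulin receptor, fell from 23.7, 23.7 and 26.6 to 2.63, 2.46 and 2.63 CPM. The RNA-binding proteins that stabilise Igf2 and other fetal transcripts split. Igf2bp1 rose from 21.7 ± 1.64 to 121 ± 2.67 CPM and Igf2bp3 from 9.18 ± 0.813 to 38.6 ± 3.29 CPM, whereas Igf2bp2 fell from 163 ± 8.20 to 105 ± 3.69 CPM (SD, n = 3). Hmga2, a fetal chromatin protein known to promote Igf2bp2, fell from 296, 287 and 263 to 43.4, 38.1 and 39.0 CPM. Of 26 tested PI3K, AKT and FOXO components, 15 were higher, 6 lower and 5 did not pass. Foxo1, a transcription factor that AKT keeps out of the nucleus, rose to 34.2, 33.2 and 34.7 from 11.8, 11.99 and 12.6 CPM, and Pik3r1, the regulatory subunit of PI3K, fell by 1.33 ± 0.10 on the log2 scale.

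**Figure D1:**
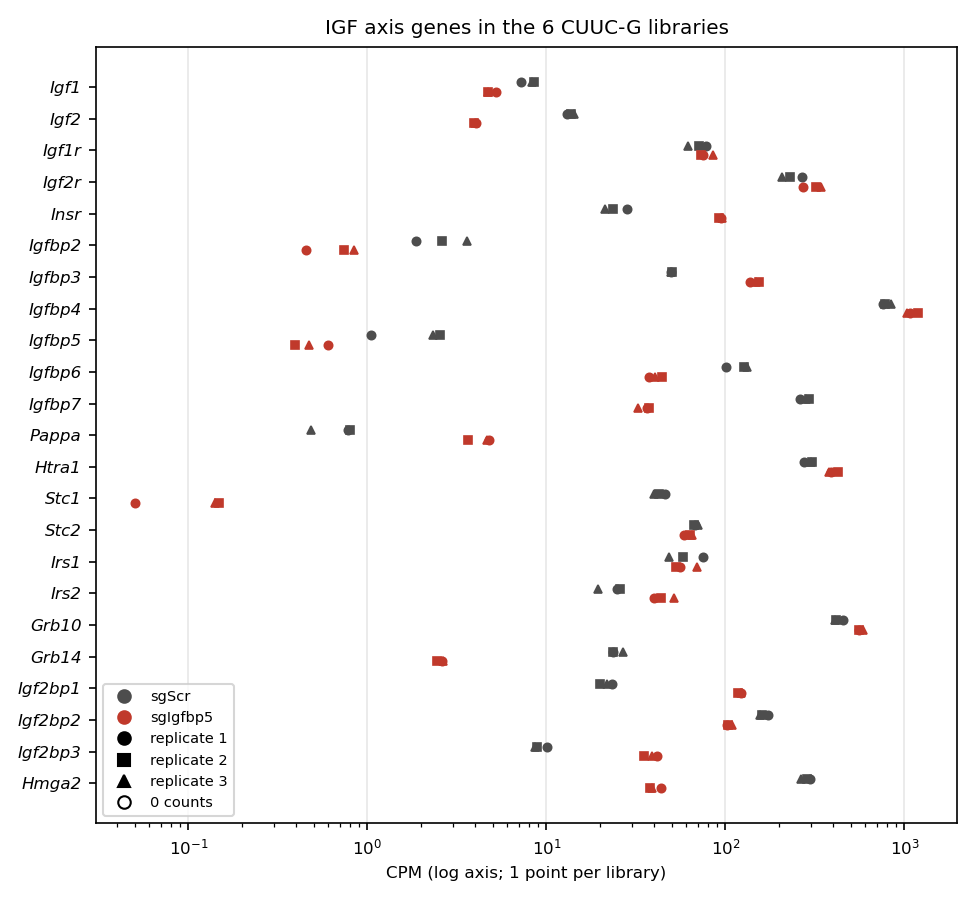
Levels of 23 IGF axis genes in CPM on a log axis, 1 symbol per library, with sgScr in dark grey and sgIgfbp5 in red and the shape giving the replicate. Stc1, Igfbp7, Grb14 and Hmga2 lie far lower with sgIgfbp5, Insr, Igf2bp1, Igf2bp3 and Pappa lie higher, and Igf1r and Irs1 overlap.

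The largest single-gene differences were near-complete losses or appearances. Among the 15 largest decreases, Cck, the peptide hormone cholecystokinin, had 108, 118 and 144 CPM in sgScr and no count in any sgIgfbp5 library, at least 2515-fold lower against a floor of 3 counts over the group. Nos2, the inducible nitric oxide synthase, went from 21.4, 16.4 and 20.1 CPM to 0, at least 394-fold. The neutrophil-attracting chemokine Cxcl5 went from 733, 747 and 794 CPM to 2.17, 1.72 and 1.60 CPM. Several of these genes code for secreted products. Saa3, an acute-phase protein, fell from 176, 233 and 275 to 1.06, 0.934 and 0.423 CPM, the protease Mmp10 from 18.5 ± 1.15 to 0.0669 ± 0.0773 CPM, and Gdf10, a BMP-like factor, from 15.8 ± 2.35 to 0.0634 ± 0.0715 CPM (SD, n = 3). Khdrbs3, an RNA-binding splicing regulator, had 790 counts over the sgScr libraries and 2 over the sgIgfbp5 libraries, a ratio of 420 (exact 95% binomial interval 116 to 3478). Prl2c2 and Prl2c3, proliferins first known from the placenta, also fell, but they share reads with near-identical copies and their separate values are uncertain.

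Among the 15 largest increases, Cdsn, the corneodesmosin of cornified skin, was at 1.41, 1.25 and 1.99 CPM in sgScr and at 731, 836 and 803 CPM in sgIgfbp5. Tenm4, a teneurin of neural and mesenchymal cells, went from 1.20, 1.66 and 1.18 to 130, 156 and 177 CPM. Tfap2a, the AP-2 alpha transcription factor of ectoderm and neural crest, went from 0.156, 0.0502 and 0.269 to 29.6, 28.0 and 28.5 CPM. Groups that do not overlap were part of the rule that chose these genes. Cd74, the invariant chain of MHC class II, rose from 0.224 ± 0.155 to 19.7 ± 1.88 CPM, Ina, a neuronal intermediate filament, from 0.291 ± 0.184 to 20.3 ± 1.01 CPM, and the zinc-finger factor Sp8 from 0.154 ± 0.131 to 16.4 ± 1.995 CPM (SD, n = 3). Scara5, a ferritin receptor, rose from 0.191 ± 0.169 to 14.04 ± 1.31 CPM. The trypsin gene Try5 rose most by fold but belongs to a family of near-identical copies, so its value is uncertain.

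**Figure D2:**
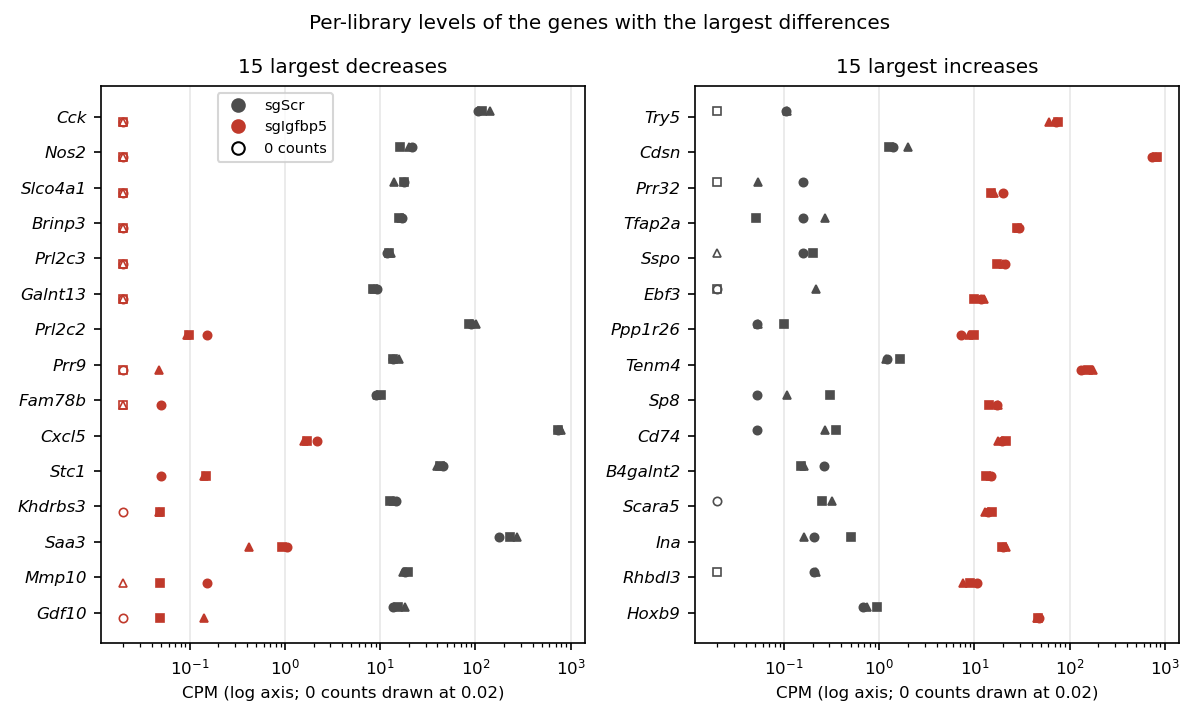
Levels of the 15 largest decreases (left) and 15 largest increases (right) in CPM on a log axis, 1 symbol per library, with open symbols at 0.02 for libraries without a count. The genes were chosen for sgScr values (dark grey) and sgIgfbp5 values (red) that do not overlap, and Cck had no count in any sgIgfbp5 library.

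By difference in TPM, the largest decreases included Actg1, cytoplasmic actin, from a mean TPM of 3682 to 1029, the intermediate filament Vim from 2388 to 685, lactate dehydrogenase Ldha from 2375 to 691, and the iron store Fth1 from 8754 to 3339. The largest increases by that measure included ribosomal protein genes such as Rpl32, from 3329 to 5267 TPM. Ribosomal protein genes have many processed copies in the mouse genome, so that the values of single members are uncertain.

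Genes of mitosis were lower throughout. The G2M list holds cyclins, mitotic kinases, motors and spindle proteins, which dividing cells make in late cell cycle; all 30 members were tested and all 30 were lower, with a median log2 fold change of -1.93. Ccnb2, cyclin B2, was 64.3, 70.3 and 75.2 CPM in sgScr and 8.48, 9.25 and 8.50 CPM in sgIgfbp5. Hmmr, a spindle protein, was 105, 94.4 and 87.5 CPM against 15.9, 7.33 and 14.3 CPM. The proliferation marker Mki67 was 233, 194 and 173 CPM against 33.6, 21.9 and 35.9 CPM. The groups did not overlap for any of these 3, which also held for 73.9% of all genes tested. Smaller changes were those of Aurka, a centrosome kinase, which fell from 109 ± 6.62 to 60.8 ± 5.10 CPM (SD, n = 3), and of Foxm1, the transcription factor of the mitotic programme, which fell by 1.15 ± 0.08 on the log2 scale.

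Promoters of mitotic genes are known for 2 short elements, the CCAAT box bound by NF-Y and the cell cycle homology region TTTGAA bound by the MuvB complex. They were counted in the first promoter that RefSeq lists for each gene (GRCm38.p6, 250 bases before to 50 after the start), on both strands. Of the 24 G2M promoters in the table, 20 held CCAAT (83.3%, against 38.6% of all 20856 promoters) and 17 held TTTGAA (70.8%, against 16.9%). Over all genes, 13.4% of the promoters of lower genes and 10.7% of those of higher genes held TTTGAA. Both elements stood in 16 promoters of lower members, and the 2 of these with the largest decreases are shown 5′ to 3′ on the gene's strand, with either orientation of the elements in capitals. Ccnb2 lies at chr9:70421505-70421804 on the minus strand and Hmmr at chr11:40733388-40733687 on the minus strand.
Ccnb2: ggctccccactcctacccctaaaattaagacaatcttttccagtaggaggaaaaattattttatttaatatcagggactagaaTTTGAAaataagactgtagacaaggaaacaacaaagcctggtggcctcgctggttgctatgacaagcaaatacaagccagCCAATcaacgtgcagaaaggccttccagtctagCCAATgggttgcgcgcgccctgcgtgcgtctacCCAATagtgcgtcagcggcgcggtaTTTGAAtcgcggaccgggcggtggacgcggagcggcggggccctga
Hmmr: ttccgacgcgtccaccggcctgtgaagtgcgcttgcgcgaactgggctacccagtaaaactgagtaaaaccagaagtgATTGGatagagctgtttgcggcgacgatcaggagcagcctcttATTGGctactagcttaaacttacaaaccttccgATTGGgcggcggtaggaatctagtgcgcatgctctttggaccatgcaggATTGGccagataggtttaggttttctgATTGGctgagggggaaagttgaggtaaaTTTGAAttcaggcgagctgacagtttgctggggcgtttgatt

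DNA replication genes fell less than mitotic ones and with exceptions. Of 37 members, 30 were lower, 2 were higher and 5 did not pass, with a median of -0.76. Rrm2, the regulated subunit of ribonucleotide reductase, was 493, 516 and 525 CPM in sgScr and 65.1, 66.9 and 61.1 CPM in sgIgfbp5, and Tk1, the thymidine kinase of S phase, fell from 99.9 ± 2.19 to 11.1 ± 0.904 CPM (SD, n = 3). Uhrf1, which recognises newly replicated hemimethylated DNA, fell from 163 ± 6.98 to 53.7 ± 3.69 CPM. The 2 that rose were subunits of the replicative helicase, but its subunits Mcm3, Mcm4, Mcm5 and Mcm6 were lower. These were named after their values were seen and had log2 fold changes of -0.51, -0.89, -0.48 and -0.32. Mcm7 rose from 246, 247 and 253 to 339, 363 and 333 CPM and Mcm2 by 0.41 ± 0.07 on the log2 scale. The clamp Pcna changed by -0.20 ± 0.07 on the log2 scale, and its edgeR call (adjusted p = 0.0262) was lost without sgScr replicate 2 (adjusted p = 0.0795), sgScr replicate 3 (adjusted p = 0.1002) or sgIgfbp5 replicate 3 (adjusted p = 0.0983). Promoters of this list held the E2F element TTCCCGC in 13 of 29 cases (44.8%, against 5.56% of all promoters), whereas 0 of the 24 G2M promoters held it. Among lower members of the list, 9 of 23 promoters held it (39.1%). Over all genes, 9.42% of the promoters of lower genes and 8.33% of those of higher genes did. The Uhrf1 promoter, at chr17:56303087-56303386 on the plus strand, is 1 of 9 among lower members with that element, which is in capitals. A match is a description of letters and not a measured binding site.
Uhrf1: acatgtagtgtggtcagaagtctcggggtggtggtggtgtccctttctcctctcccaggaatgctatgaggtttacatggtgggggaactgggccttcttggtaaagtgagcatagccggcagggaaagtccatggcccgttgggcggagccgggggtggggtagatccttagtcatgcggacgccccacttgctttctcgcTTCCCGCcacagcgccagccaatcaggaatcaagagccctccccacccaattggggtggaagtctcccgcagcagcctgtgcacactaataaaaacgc

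Regulators of G1 were mixed. Of 23 members, 15 were lower, 5 higher and 3 did not pass. Ccne1, cyclin E1, fell from 42.7, 48.9 and 50.3 to 14.8, 15.9 and 13.9 CPM and Ccnd1, cyclin D1, from 349 ± 2.92 to 194 ± 2.59 CPM, while Ccnd2 rose by 0.36 ± 0.09 on the log2 scale. Inhibitors of these kinases went both ways. Cdkn1a (p21) went from 20.9 ± 2.24 to 26.8 ± 0.156 CPM and Cdkn1b (p27) from 59.0 ± 4.12 to 77.0 ± 7.75 CPM (SD, n = 3). Cdkn2d (p19) fell from 31.3, 31.4 and 39.1 to 9.996, 9.93 and 8.50 CPM. Cdkn2c, named after its values were seen, had a log2 fold change of -0.54 (edgeR adjusted p = 3.76e-05). Cdkn2b had -0.30 (edgeR adjusted p = 0.0204), a call lost without sgScr replicate 2 or sgIgfbp5 replicate 1 or 3, with adjusted p of 0.0552 to 0.105. Cdkn1c had -0.42 (edgeR adjusted p = 0.0404), a call lost with any library but sgIgfbp5 replicate 3 left out, with adjusted p of 0.0589 to 0.110. Cdkn2a stood at 439 ± 53.03 and 431 ± 38.2 CPM with overlapping groups.

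Trp53, the gene of the tumour suppressor p53, was itself higher, at 26.4, 30.2 and 32.4 CPM in sgScr and 138, 153 and 133 CPM in sgIgfbp5. Of 29 genes listed as p53 targets, Trp53 included, 18 were higher, 4 lower and 7 did not pass, with a median of 0.70. The stress gene Gadd45a went from 19.5, 20.2 and 21.2 to 265, 243 and 243 CPM, Trp53inp1, a nuclear cofactor, from 5.27 ± 1.05 to 56.97 ± 13.6 CPM, and Xpc, a DNA damage sensor, from 12.5 ± 0.827 to 48.5 ± 1.06 CPM. Other classical targets did not follow. Ccng1, cyclin G1, fell by 1.30 ± 0.12 on the log2 scale and Phlda3 by 0.50 ± 0.11 on the log2 scale, and Mdm2, the ubiquitin ligase of p53, was 93.6 ± 1.52 and 81.9 ± 7.40 CPM (edgeR adjusted p = 0.0501, and 0.0101 or 0.0376 without sgIgfbp5 replicate 1 or 2).

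**Figure D3:**
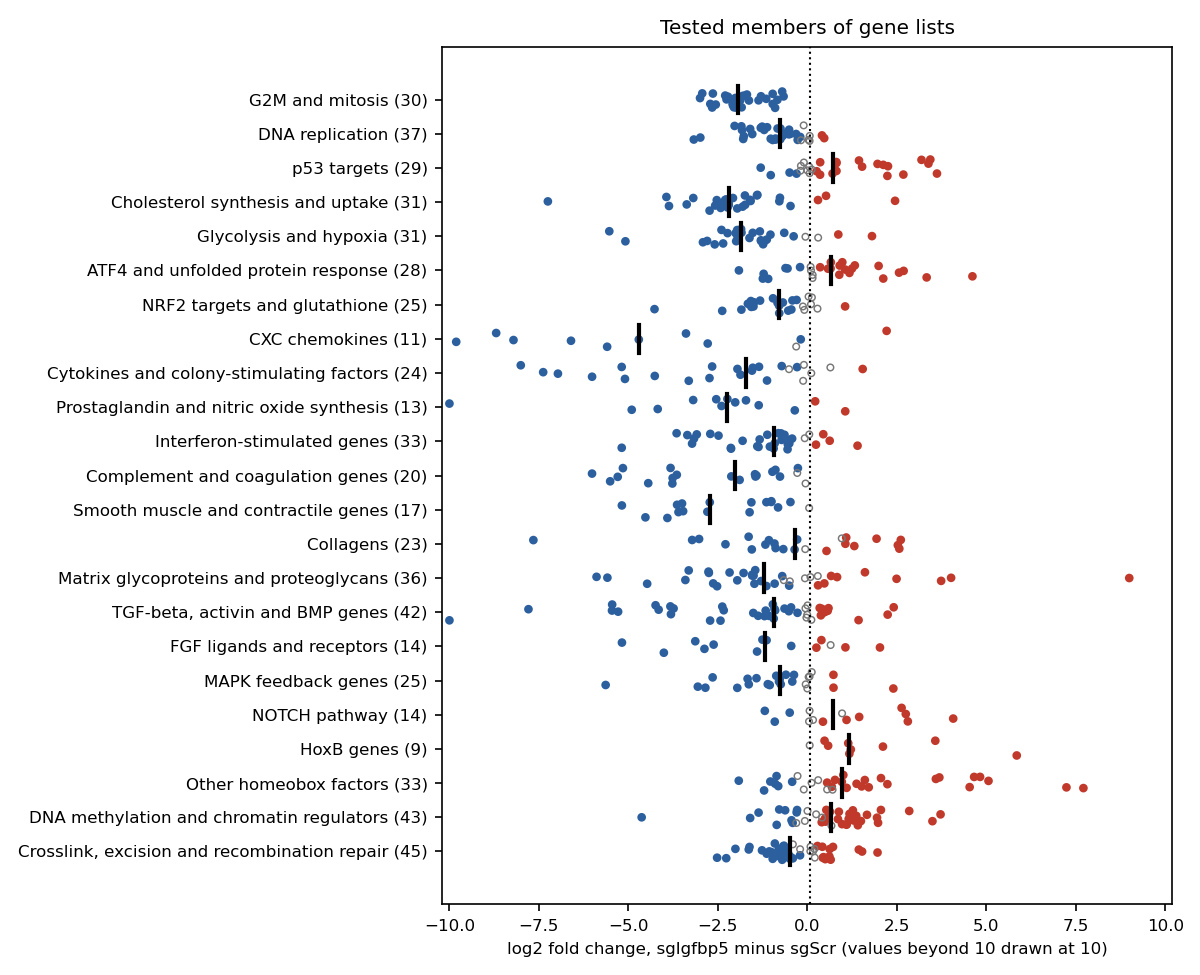
Log2 fold changes (sgIgfbp5 minus sgScr) of the tested members of 23 gene lists, with the number tested in brackets; red points were higher and blue points lower at an adjusted p under 0.05, grey open points did not pass, black bars are list medians and the dotted line is the median of all genes, 0.06. Mitotic, contractile and complement genes lie to the left, whereas p53 targets, HoxB genes and chromatin regulators lie mainly to the right.

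Genes of sterol synthesis fell almost throughout. Cells make cholesterol from acetyl-CoA under the control of the SREBP2 factor, which also drives cholesterol uptake. Of 31 tested genes of synthesis and uptake, 28 were lower and 3 higher, with a median of -2.20. The genes that rose were Nr1h2, a liver X receptor, by 0.30 ± 0.08 on the log2 scale, Nr1h3, the other liver X receptor, and Mylip. Nr1h3 and Mylip, named after their values were seen, had log2 fold changes of 2.45 and 0.52. Idi1, the isomerase of the isoprenoid units, went from 357, 363 and 376 to 26.7, 20.02 and 24.8 CPM. Acat2, a thiolase that joins acetyl-CoA units, went from 191, 193 and 201 to 18.9, 21.8 and 15.9 CPM. Srebf2, which codes for SREBP2 itself, fell by 0.78 ± 0.07 on the log2 scale.

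CCAAT boxes were in 17 of 23 promoters of this list (73.9%), and the sterol element core CACNCCA in 6 of 23 (26.1%, against 18% of all promoters). The 2 members with the largest decreases that hold both are Insig1, whose product retains SREBP in the endoplasmic reticulum, at chr5:28071162-28071461 on the plus strand, and the synthase gene Hmgcs1, at chr13:119690101-119690400 on the plus strand. Insig1 went from 238, 240 and 233 to 40.2, 31.4 and 35.3 CPM and Hmgcs1 from 367, 354 and 371 to 86.2, 68.0 and 73.1 CPM. Both elements are in capitals in either orientation.
Insig1: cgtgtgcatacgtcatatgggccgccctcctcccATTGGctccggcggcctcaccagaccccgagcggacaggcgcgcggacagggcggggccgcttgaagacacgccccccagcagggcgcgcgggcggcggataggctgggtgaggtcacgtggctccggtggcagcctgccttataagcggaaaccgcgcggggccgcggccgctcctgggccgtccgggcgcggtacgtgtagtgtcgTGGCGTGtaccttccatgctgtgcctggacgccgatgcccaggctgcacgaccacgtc
Hmgcs1: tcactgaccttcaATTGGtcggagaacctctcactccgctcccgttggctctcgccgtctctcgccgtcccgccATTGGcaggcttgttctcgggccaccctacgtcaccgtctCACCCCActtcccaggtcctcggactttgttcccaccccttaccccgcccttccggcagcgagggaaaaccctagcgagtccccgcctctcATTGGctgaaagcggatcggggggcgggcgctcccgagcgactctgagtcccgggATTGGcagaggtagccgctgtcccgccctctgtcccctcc

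Fatty acid genes moved both ways, without a clean split between synthesis and storage. Of 22 tested, 15 were lower and 7 higher. Elovl6, which lengthens fatty acids, fell from 122, 110 and 99.0 to 18.6, 13.4 and 15.5 CPM, the desaturase Fads2 from 414 ± 17.3 to 76.5 ± 5.68 CPM and the synthase Fasn from 761 ± 93.1 to 310 ± 20.5 CPM (SD, n = 3). Genes of triglyceride formation rose instead. Dgat2 went from 6.98, 7.33 and 7.69 to 42.8, 47.4 and 40.5 CPM. Acacb, listed with the synthesis genes, rose with a log2 fold change of 1.93. The fatty acid carriers Fabp4 and Fabp5 fell, with -9.13 and -1.18. These members were named after their values were seen.

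Glycolysis and hypoxia-inducible genes, which HIF factors drive when oxygen is low, fell in 27 of 31 cases, with 2 higher, 2 that did not pass and a median of -1.84. Slc2a1, the glucose transporter GLUT1, was 248, 282 and 269 CPM in sgScr and 48.8, 55.7 and 47.0 CPM in sgIgfbp5. Adm, the vasodilator adrenomedullin, went from 31.2 ± 1.29 to 0.667 ± 0.0339 CPM and Epas1, the HIF2 alpha factor, from 11.8 ± 0.538 to 0.339 ± 0.115 CPM (SD, n = 3). The 2 genes that rose are also known HIF targets. Vegfa, the angiogenic growth factor, rose from 276, 284 and 286 to 546, 488 and 506 CPM and Ndrg1, a stress-responsive protein, from 105, 103 and 104 to 353, 389 and 349 CPM. Txnip, a glucose-responsive inhibitor of thioredoxin and of glucose uptake, rose from 119, 114 and 116 to 1077, 1181 and 1086 CPM, together with the related Arrdc4. Among nuclear genes of the respiratory chain, 14 of 31 were higher, 4 lower and 13 did not pass, with a median of 0.20.

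Genes of the amino acid and unfolded protein stress responses were more often higher than lower. ATF4 is a transcription factor that cells translate when amino acids are short or proteins misfold in the endoplasmic reticulum. Of 28 genes of ATF4 and the unfolded protein response, 17 were higher, 7 lower and 4 did not pass. Atf3 went from 7.92, 8.23 and 8.98 to 198, 213 and 204 CPM, Ddit3 (CHOP) from 47.5, 57.1 and 57.6 to 353, 375 and 319 CPM, and Trib3 from 44.5, 49.7 and 52.8 to 480, 534 and 467 CPM. Asns, asparagine synthetase, and Chac1, which degrades glutathione, rose with them, by 1.99 ± 0.07 and 2.56 ± 0.08 on the log2 scale. Among those that fell were chaperones of the endoplasmic reticulum. Calr went from 1222 ± 49.0 to 516 ± 32.5 CPM and Hsp90b1 from 1097 ± 21.2 to 514 ± 105 CPM, while the sensor chaperone Hspa5 was 1075 ± 30.2 and 1190 ± 57.1 CPM (SD, n = 3; edgeR adjusted p = 0.0709).

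Antioxidant and cytosolic chaperone genes fell. Of 25 tested NRF2 targets and glutathione genes, 18 were lower, 1 higher and 6 did not pass; Nqo1, a quinone reductase, went from 13.2, 13.9 and 12.5 to 2.12, 2.51 and 2.96 CPM, and the one that rose was the cystine transporter Slc7a11, by 1.05 ± 0.13 on the log2 scale. Of 16 heat shock genes, 9 were lower and 2 higher, led by the small heat shock protein Cryab, from 303, 324 and 357 to 33.1, 36.4 and 32.0 CPM. Of 33 lysosome and autophagy genes, 18 were lower and 10 higher, but with library size scaling these numbers were 11 and 11. Cathepsin genes such as Ctsb, from 815 ± 14.8 to 324 ± 15.98 CPM, fell, whereas the autophagy receptor Sqstm1 rose from 577 ± 25.9 to 917 ± 58.6 CPM and the kinase Ulk1 from 48.3 ± 3.38 to 106 ± 1.43 CPM (SD, n = 3).

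Most of the tested CXC chemokines, which attract leukocytes, fell. Of 11 tested CXC chemokines, of 18 listed, 9 were lower, 1 higher and 1 did not pass. The one that rose was Cxcl15, from 1.76 ± 0.359 to 8.16 ± 0.506 CPM (SD, n = 3). Besides Cxcl5, Cxcl1 went from 138, 151 and 161 to 6.26, 5.80 and 5.17 CPM, and Cxcl2 from 5.16, 5.07 and 6.72 CPM to 0 counts, at least 115-fold lower. Cxcl12, the ligand of CXCR4 made by stromal cells, was 614 ± 13.8 and 540 ± 13.7 CPM (SD). Its edgeR call (adjusted p = 0.0215) was lost without sgScr replicate 2 (adjusted p = 0.0762), sgIgfbp5 replicate 1 (adjusted p = 0.0686) or sgIgfbp5 replicate 3 (adjusted p = 0.0558). CC chemokines went both ways. Of 9 tested, with Cx3cl1 among them, 4 were lower, 1 higher and 4 did not pass, with a median of -0.19. The monocyte attractant Ccl2 was 470, 518 and 571 CPM in sgScr and 11.1, 11.3 and 8.97 CPM in sgIgfbp5, and the related Ccl7 fell by 5.97 ± 0.11 on the log2 scale. The gene that rose was Ccl25, from 5.08 ± 0.328 to 10.8 ± 0.713 CPM (SD, n = 3).

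Of 24 tested cytokines, receptors and colony-stimulating factors, 18 were lower, 1 higher and 5 did not pass. The alarmin Il33 went from 256, 257 and 252 to 26.7, 25.2 and 25.1 CPM, and its receptor Il1rl1 from 107, 110 and 104 to 1.06, 0.590 and 0.282 CPM. Il6 fell from 18.02 ± 0.715 to 0.520 ± 0.196 CPM and Csf3, the granulocyte factor, from 10.9 ± 1.73 to 0.164 ± 0.158 CPM (SD, n = 3). Csf1, the macrophage growth factor, stood at 386 ± 8.76 and 417 ± 12.8 CPM and did not pass (edgeR adjusted p = 0.141). The gene that rose was Tslp, an epithelial cytokine at low level, from 0.361 ± 0.143 to 1.07 ± 0.268 CPM.

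Subunits of NF-kB, the factor behind many of these cytokines, did not fall with them. In the list of NF-kB subunits and feedback genes, 7 of 19 tested were higher, 10 lower and 2 did not pass. Relb rose from 34.1 ± 1.99 to 71.2 ± 4.94 CPM and Nfkb2 by 0.49 ± 0.07 on the log2 scale, while the feedback inhibitor Tnfaip3 fell from 28.5 ± 2.04 to 15.3 ± 1.12 CPM (SD, n = 3). Ptx3, a pentraxin that NF-kB can induce, rose from 56.1, 56.7 and 60.8 to 254, 258 and 241 CPM.

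Prostaglandin synthesis fell at both of its cyclooxygenases. Of 13 tested genes of prostaglandin and nitric oxide synthesis, 11 were lower and 2 higher. The inducible Ptgs2 went from 1255, 1163 and 1128 to 148, 110 and 130 CPM and the constitutive Ptgs1 from 313, 290 and 300 to 62.9, 67.2 and 61.8 CPM. Ptges, which makes prostaglandin E, fell by 2.40 ± 0.09 on the log2 scale. Interferon-stimulated genes were lower in 27 of 33 cases, with 4 higher and 2 that did not pass; Ifit1 went from 27.4, 24.4 and 24.96 to 3.84, 1.57 and 2.11 CPM. Antigen presentation did not share that direction. Of 14 tested, 7 were higher, 3 lower and 4 did not pass; H2-D1 rose from 109 ± 10.16 to 175 ± 14.2 CPM, Cd274 (PD-L1) from 3.84 ± 0.659 to 8.45 ± 0.202 CPM, and B2m was 224 ± 19.9 and 231 ± 20.97 CPM with overlapping groups.

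Complement and coagulation genes were lower in 18 of 20 tested cases, with 0 higher and a median of -2.01. The complement component C3 went from 208, 188 and 168 to 7.72, 8.36 and 9.72 CPM. Tfpi, the inhibitor of the tissue factor pathway, went from 40.5, 37.5 and 37.0 to 3.18, 2.31 and 2.63 CPM. Both plasminogen activators fell as well. Plau dropped from 64.8 ± 3.81 to 23.7 ± 1.51 CPM and Plat from 53.6 ± 1.09 to 12.3 ± 1.29 CPM (SD, n = 3).

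Among collagens, 13 of 23 tested were lower, 8 higher and 2 did not pass. Col1a1, the main fibrillar collagen, went from 6059, 6064 and 5693 to 2627, 2971 and 2864 CPM, while its fibril partner Col3a1 rose from 630, 637 and 623 to 1270, 1432 and 1309 CPM. Col8a1, a short-chain collagen, fell from 89.9 ± 3.90 to 0.448 ± 0.370 CPM. Chains of the basement membrane collagen type IV went different ways. Col4a5 rose from 124 ± 12.7 to 307 ± 1.30 CPM, Col4a1 was 348 ± 21.5 and 334 ± 22.6 CPM with overlapping groups, and Col4a2, named after its values were seen, had a log2 fold change of -0.36 (edgeR adjusted p = 0.0023). The anchoring collagen Col7a1 rose from 6.75 ± 0.513 to 40.1 ± 1.57 CPM and Col18a1, also of basement membranes, from 7.12 ± 0.976 to 43.5 ± 3.61 CPM (SD, n = 3).

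Of 36 tested matrix glycoproteins and proteoglycans, 22 were lower, 9 higher and 5 did not pass. Thrombospondins, which modulate adhesion and growth factors, fell from high levels: Thbs2 went from 3791, 3596 and 3357 to 71.0, 78.6 and 74.0 CPM and Thbs1 from 3482, 3156 and 2938 to 446, 481 and 494 CPM. Fibronectin Fn1 was higher, at 4756, 3757 and 3178 CPM in sgScr and 5873, 7067 and 7838 CPM in sgIgfbp5. Genes of the CCN family went opposite ways. The fibrillin Fbn2 rose from 30.1, 27.4 and 20.71 to 308, 345 and 391 CPM. In the CCN family, Ccn3 rose from 5.005 ± 0.744 to 80.9 ± 0.746 CPM, whereas Ccn2 fell from 275 ± 1.25 to 61.0 ± 4.53 CPM and Ccn1 from 591 ± 6.39 to 203 ± 5.57 CPM (SD, n = 3).

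Matrix proteases were lower in 18 of 29 tested cases, higher in 6 and did not pass in 5. The gelatinase Mmp2 went from 428, 419 and 408 to 47.8, 53.9 and 52.99 CPM and the stromelysin Mmp3 from 83.0, 89.3 and 97.5 to 1.77, 1.67 and 1.32 CPM. Mmp11 rose from 7.69 ± 1.08 to 66.1 ± 2.65 CPM and Mmp28 from 2.42 ± 0.470 to 21.2 ± 2.61 CPM (SD, n = 3). Among 28 tested integrins and laminins, 19 were lower and 6 higher. The fibronectin receptor subunit Itga5 fell from 482, 485 and 472 to 115, 126 and 118 CPM and Lama4 from 81.9 ± 9.09 to 1.996 ± 0.423 CPM, while Lama5, a laminin of epithelial basement membranes, rose from 172 ± 28.4 to 531 ± 56.1 CPM.

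Contractile genes fell together: 16 of 17 tested smooth muscle genes were lower, 0 were higher and 1 did not pass, with a median of -2.73. Acta2, smooth muscle actin, went from 932, 995 and 1058 to 140, 157 and 134 CPM, Tagln from 296, 321 and 354 to 26.0, 29.5 and 24.6 CPM and Cnn1, calponin, by -4.52 ± 0.12 on the log2 scale. The summed level of the 7 smooth muscle markers was 1332 to 1522 CPM in sgScr and 163 to 193 CPM in sgIgfbp5. That of the 12 fibroblast markers was 9113 to 9612 CPM against 4813 to 5433 CPM. The largest part of that sum was Col1a1, whose levels are given above. Of the 9 fibroblast markers tested, 6 were lower and 3 higher, and Lum, Fap, Dpt, Pi16 and Tcf21 were under 1 CPM in both groups. The part of other cells in these differences was not tested.

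Epithelial and mesenchymal markers did not exchange places. Of 16 tested transcription factors, cadherins and filaments of the epithelial-mesenchymal transition, 11 were lower, 2 higher and 3 did not pass. Cdh2 fell from 567, 563 and 545 to 227, 208 and 226 CPM, and Cdh1, E-cadherin, fell too, from 13.2, 11.8 and 12.5 to 5.05, 6.05 and 5.83 CPM. S100a4, a protein of motile cells, fell from 112 ± 17.3 to 2.53 ± 0.892 CPM. The repressors split: Snai1 fell from 67.6 ± 2.69 to 21.03 ± 0.120 CPM, whereas Snai2 rose from 33.0 ± 3.68 to 84.4 ± 9.95 CPM (SD, n = 3). Twist1 was 56.1 ± 6.498 and 54.8 ± 3.76 CPM with overlapping groups.

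Keratins of the urothelium fell. Of 17 tested markers of basal and luminal urothelium, 12 were lower, 4 higher and 1 did not pass. The summed level of the 16 urothelial markers was 664 to 748 CPM in sgScr and 146 to 172 CPM in sgIgfbp5. Krt19 went from 289, 320 and 330 to 33.5, 37.8 and 33.0 CPM and the uroplakin Upk1b from 88.3, 84.2 and 97.9 to 8.99, 10.97 and 9.49 CPM. Urothelial regulators went both ways. Gata3 rose from 0.990, 1.91 and 1.67 to 13.6, 15.1 and 17.99 CPM, Foxa1 from 0.0843 ± 0.104 to 4.44 ± 0.608 CPM and Fgfr3 from 2.57 ± 0.593 to 5.38 ± 0.528 CPM (SD, n = 3). Foxa2, instead, fell from 62.2 ± 1.13 to 26.7 ± 0.883 CPM and Klf5 by 0.67 ± 0.11 on the log2 scale. The 4 mesothelial markers Wt1, Msln, Upk3b and Lrrn4 were lower as well, with a sum of 329 to 348 CPM in sgScr and 73.9 to 81.7 CPM in sgIgfbp5.

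Several FGF genes and Pdgfra, which are typical of stromal cells, fell. Among FGF genes, 9 of 14 tested were lower and 4 higher. The receptor Fgfr1 went from 358, 370 and 349 to 57.3, 62.2 and 55.9 CPM, and the ligands Fgf7 and Fgf10, which signal from stroma to epithelium, fell from 199 ± 5.13 to 22.7 ± 7.10 CPM and from 36.2 ± 1.46 to 0.994 ± 0.0486 CPM (SD, n = 3). Pdgfra went from 111, 105 and 99.3 to 3.28, 3.0 and 3.76 CPM. Its relative Pdgfrb did not share that fall and was higher, at 45.9 ± 2.31 against 35.0 ± 4.003 CPM. The PDGF ligands went both ways. Pdgfd fell with a log2 fold change of -3.87, Pdgfb and Pdgfa rose with 5.64 and 0.38, and Pdgfc did not pass. These ligands were named after their values were seen. Of 25 tested genes in this list of other receptor tyrosine kinases and ligands, 14 were lower, 9 higher and 2 did not pass. Kitl, the ligand of KIT, fell from 56.0, 49.9 and 48.5 to 3.03, 1.13 and 1.97 CPM.

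In the ERBB family, 8 of 15 tested genes were lower and 4 higher. The ligand Ereg went from 117, 109 and 101 to 7.62, 4.28 and 7.94 CPM, while the receptor Erbb2 rose from 21.9 ± 1.70 to 37.0 ± 4.11 CPM (SD, n = 3). Egfr was called lower in CPM, with a log2 fold change of -0.33 ± 0.10, but its mean TPM was 16.7 and 17.2. MAPK feedback genes, which mark signalling through ERK, were lower in 17 of 25 tested cases and higher in 3. The phosphatase Dusp4 went from 130, 117 and 107 to 14.4, 16.5 and 18.1 CPM, Etv4 from 42.2 ± 3.88 to 6.73 ± 1.04 CPM and Spry2 from 50.5 ± 4.54 to 24.4 ± 0.455 CPM. Immediate early genes moved otherwise. Of 23, 10 were higher, 6 lower and 7 did not pass; Egr1 rose from 39.9, 40.3 and 42.2 to 317, 325 and 330 CPM and Myc from 177, 184 and 187 to 452, 446 and 425 CPM, while Fosl1 fell from 133 ± 4.99 to 44.3 ± 2.60 CPM.

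Among TGF-beta, activin and BMP genes, 27 of 42 tested were lower, 10 higher and 5 did not pass. The co-receptor Tgfbr3 went from 247, 223 and 208 to 16.4, 15.2 and 16.2 CPM, the BMP antagonist Grem1 from 319, 311 and 313 to 19.9, 14.2 and 18.8 CPM and Bmp6 from 19.3 ± 0.482 to 0.490 ± 0.108 CPM (SD, n = 3). Tgfb1 and Tgfb2 went apart, by -0.92 ± 0.08 and 0.46 ± 0.08 on the log2 scale. VEGF and angiopoietin genes were lower in 13 of 15 tested cases; Kdr, a VEGF receptor, went from 153, 156 and 148 to 7.72, 8.31 and 7.33 CPM, and Angpt1 from 5.94, 6.57 and 5.59 CPM to 0 counts, at least 124-fold lower. Apart from Kdr, the 6 other endothelial markers were under 1 CPM in both groups.

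In the NOTCH pathway, 7 of 14 tested genes were higher, 3 lower and 4 did not pass. Notch1 went from 3.91, 2.91 and 3.44 to 19.3, 21.6 and 22.7 CPM, Notch3 from 1.57 ± 0.329 to 10.5 ± 1.06 CPM and the ligand Jag2 from 2.72 ± 0.611 to 19.1 ± 2.82 CPM (SD, n = 3). Notch2, the most abundant of these receptors in sgScr at 22.8 TPM, fell to 17.2 TPM, and the target Hes1 fell from 32.6 ± 2.29 to 14.3 ± 1.26 CPM. In the WNT list 19 of 39 tested were lower and 15 higher, which became 13 and 13 on log2(TPM + 1). Secreted WNT antagonists fell. Dkk2 went from 60.6, 63.8 and 64.7 to 1.16, 1.08 and 1.22 CPM, Dkk3 from 52.4 ± 4.37 to 1.72 ± 0.679 CPM and Sfrp1 from 12.1 ± 0.237 to 0.133 ± 0.107 CPM.

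Hedgehog co-receptors went opposite ways: Cdon rose from 41.6, 35.7 and 33.7 to 214, 239 and 256 CPM and Gas1 fell from 186, 176 and 185 to 28.9, 28.7 and 27.4 CPM. The signal transducer Smo rose by 1.26 ± 0.08 on the log2 scale, whereas the target Gli1 stayed low, at 0.574 ± 0.169 and 0.688 ± 0.193 CPM. For YAP and its targets, 9 of 22 were higher, 9 lower and 4 did not pass. Amotl2 rose from 369 ± 15.4 to 906 ± 44.6 CPM while Yap1 fell by 0.53 ± 0.07 on the log2 scale. The targets Ccn1 and Ccn2 fell, as given above. Ankrd1, named after its values were seen, had a log2 fold change of -0.61. Of 35 tested semaphorins, plexins, netrins and slits, 13 were higher and 16 lower, and of 17 ephrins and EPH receptors 9 were higher and 4 lower. Slit3 went from 102, 92.6 and 93.9 to 1.41, 2.02 and 1.97 CPM, and the EPH receptors Epha7 and Ephb6 rose from 3.51 ± 0.958 to 30.5 ± 1.97 CPM and from 1.93 ± 0.470 to 16.6 ± 2.81 CPM (SD, n = 3).

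Hox genes, which set position along the body axis and lie in 4 clusters, did not fall in any called case. Of 32 tested, 25 were higher, 0 lower and 7 did not pass: 8 of 11 in HoxA, 8 of 9 in HoxB, 6 of 9 in HoxC and 3 of 3 in HoxD were higher. The largest rise was that of Hoxb9, from 0.678, 0.953 and 0.753 to 47.5, 46.0 and 45.4 CPM. Hoxd9 went from 0.782, 0.652 and 0.430 to 14.8, 17.6 and 14.7 CPM. Neighbours in a cluster did not change by the same amount. In HoxB, Hoxb2 was 17.8 ± 1.55 and 18.6 ± 2.91 CPM (SD, n = 3), Hoxb7 rose by 1.21 ± 0.09 on the log2 scale, Hoxb8 by 2.11 ± 0.18 and Hoxb9 by 5.85 ± 0.14. Hoxa10 and Hoxa11 had the highest TPM in sgScr, 49.2 and 49.9; Hoxa10 rose by 0.31 ± 0.07 on the log2 scale, while Hoxa11 was 76.9 ± 2.70 and 77.0 ± 4.20 CPM with overlapping groups.

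**Figure D4:**
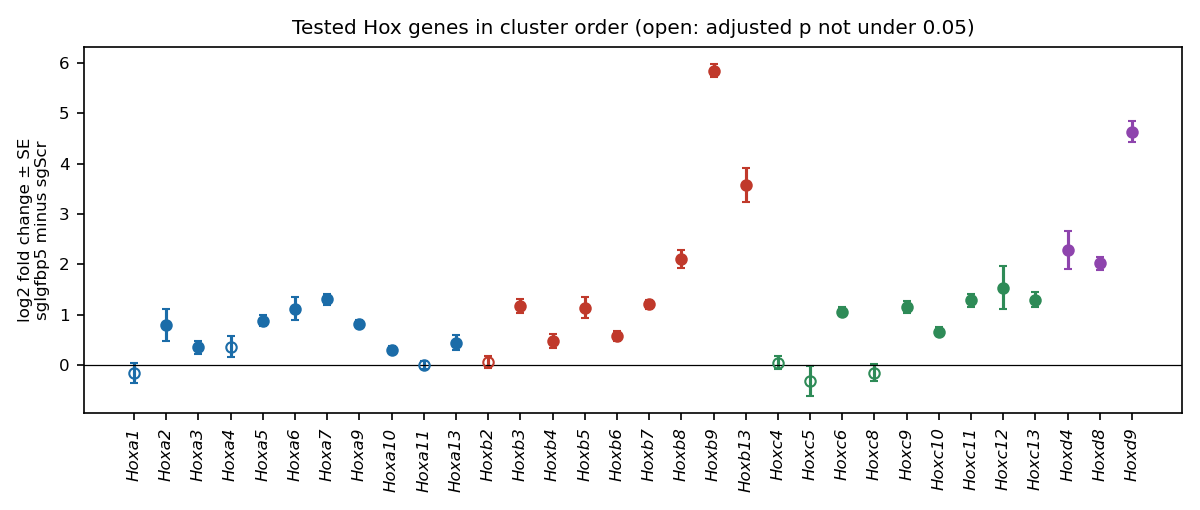
Log2 fold changes with their SE (sgIgfbp5 minus sgScr) of the 32 tested Hox genes in cluster order, coloured by cluster, with open points for genes that did not pass. The highest points are Hoxb9 at 5.85 and Hoxd9 at 4.64, and no filled point lies below 0.

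Other developmental regulators went both ways. Of 33 tested other homeobox factors, 20 were higher, 7 lower and 6 did not pass, and of 15 tested SOX, PAX and sine oculis factors 11 were higher and 1 lower. Of 21 GATA, FOX and TBX factors, 10 were higher and 8 lower, or 8 and 8 under the filter of 1 CPM in 3 libraries. Of 34 KLF factors and nuclear receptors, 15 were higher and 14 lower, a balance that was tied without sgScr replicate 2 or 3 or sgIgfbp5 replicate 2 or 3. Satb1, a chromatin organiser, went from 2.76, 2.26 and 1.94 to 58.7, 55.9 and 61.8 CPM, Irx1 from 1.86 ± 0.706 to 24.0 ± 1.91 CPM and Pax3, a neural crest factor, from 3.07 ± 0.380 to 24.3 ± 1.38 CPM (SD, n = 3). Prrx1, a factor of limb and stromal mesenchyme, fell from 165, 165 and 161 to 42.9, 31.6 and 39.8 CPM, and Sox9 from 41.4 ± 0.587 to 12.8 ± 1.64 CPM. AP-2 and EBF factors appeared beside Tfap2a. Ebf3 went from 4 counts over sgScr to 11.7, 9.84 and 12.7 CPM, and Tfap2e from 0 counts to 0.808, 1.23 and 1.27 CPM, at least 21.3-fold higher. Receptors of female sex steroids fell: Pgr went from 66.8, 55.3 and 52.4 to 2.22, 0.885 and 2.11 CPM and Esr1 from 27.9 ± 3.58 to 6.10 ± 1.21 CPM (SD, n = 3).

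Of 43 genes of DNA methylation and chromatin, 27 were higher, 10 lower and 6 did not pass, with a median of 0.67. The H3K4 methyltransferase Kmt2d went from 130, 94.1 and 83.4 to 293, 313 and 369 CPM, the remodeller subunit Arid1a from 114, 98.4 and 90.1 to 218, 254 and 266 CPM and the H3K27 demethylase Kdm6b from 65.8, 56.4 and 52.7 to 215, 228 and 244 CPM. Chd7 and Cbx7 rose from lower levels, by 2.85 ± 0.11 and 3.72 ± 0.11 on the log2 scale. Genes of maintenance methylation fell. Dnmt1 went from 269, 258 and 250 to 135, 145 and 148 CPM, with Uhrf1 as given above, whereas the de novo enzyme Dnmt3a rose from 39.0 ± 0.471 to 104 ± 4.804 CPM (SD, n = 3). Ezh2, the methyltransferase of H3K27, stood at 66.9 ± 4.14 and 63.8 ± 6.54 CPM with overlapping groups.

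Imprinted genes, of which cells use 1 parental copy, gave 10 higher, 7 lower and 6 that did not pass among 23 tested. Peg3 went from 0.261, 0.0502 and 0.377 to 4.54, 2.75 and 2.87 CPM, and the growth inhibitor Grb10, which binds the insulin and IGF1 receptors, rose by 0.42 ± 0.07 on the log2 scale. H19, the neighbour of Igf2, was 2.19 ± 0.551 and 1.68 ± 0.224 CPM (SD, n = 3) with overlapping groups. Of 43 germline genes listed only 9 were tested, of which 7 were lower and 1 higher. Ddx4, the germ cell helicase VASA, went from 26.5, 28.1 and 28.3 to 0.353, 0.0984 and 0.376 CPM.

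Repair and drug-handling genes bear on cisplatin and gemcitabine, the drugs of the tumour arm of the series, although the cells compared here are not labelled as treated with them. Of 45 genes of crosslink, excision and recombination repair, 26 were lower, 12 higher and 7 did not pass. Homologous recombination and Fanconi genes such as Brca1, from 37.9, 39.1 and 36.04 to 16.8, 13.9 and 16.3 CPM, and Fanci, by -2.27 ± 0.17 on the log2 scale, fell. Several genes of nucleotide excision repair did not. Besides Xpc, Ddb2 rose from 2.83 ± 1.08 to 8.18 ± 1.44 CPM and Ercc2 from 23.8 ± 0.277 to 39.2 ± 1.62 CPM, while Ercc1, which cuts beside the lesion, fell from 23.03 ± 2.22 to 11.8 ± 1.03 CPM (SD, n = 3).

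Of 16 tested gemcitabine genes, 10 were lower, 3 higher and 3 did not pass. Dck, which activates the drug, went from 87.2, 83.2 and 84.7 to 47.0, 42.0 and 46.7 CPM, and Cda, which inactivates it, from 6.67, 8.98 and 7.42 to 0.959, 1.72 and 0.799 CPM. The uptake transporter Slc29a1 changed by -0.20 ± 0.07 on the log2 scale (edgeR adjusted p = 0.0250), a call lost without sgScr replicate 2 or 3 or sgIgfbp5 replicate 1 or 3, with adjusted p of 0.0569 to 0.0981. Rrm1 and Rrm2, subunits of the target of the drug, fell by 0.71 ± 0.07 and 2.99 ± 0.07. A gene of activation and a gene of inactivation were thus both lower. Among 13 tested genes of cisplatin and copper handling, 6 were lower and 5 higher, although their median of 0.16 was positive, and library size scaling gave 5 and 7. The copper exporter Atp7b went from 7.56, 7.23 and 6.29 to 0.404, 0.443 and 0.658 CPM and the metallothioneins Mt1 and Mt2 from 264 ± 43.6 to 50.5 ± 5.59 CPM and from 133 ± 35.8 to 14.4 ± 2.17 CPM (SD, n = 3). The importer Slc31a1 was 61.8 ± 2.55 and 68.9 ± 2.43 CPM and did not pass (edgeR adjusted p = 0.0804). The efflux pump Abcb1a fell from 11.7, 11.04 and 11.6 to 0.454, 0.344 and 0.564 CPM.

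Chromosomes differed in their median. Among the autosomes and X, tested genes of chromosome 18 had a median log2 fold change of 0.44 and 53.3% were higher, against 36.5% of all genes, followed by chromosome 6 with 0.35 and chromosome 2 with 0.27. At the other end, genes of chromosome 16 had a median of -0.32 and 50.3% were lower, against 34.3% of all genes, and those of chromosome 13 had -0.27. Set against the mean of the sgScr libraries, the sgIgfbp5 libraries gave 0.483, 0.341 and 0.421 for chromosome 18, and -0.272, -0.356 and -0.324 for chromosome 16. Each sgScr library, set against the other two, lay between -0.044 and 0.045 on these 2 chromosomes. Chromosome Y had only 6 tested genes, with a median of 0.69. Scaled by library size, its counts were 377 to 451 CPM in sgScr and 755 to 905 CPM in sgIgfbp5. The Y-linked genes Ddx3y and Eif2s3y nevertheless had no count in these libraries. Where the chromosome Y counts came from was not tested. Chromosome copy number was not measured.

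**Figure D5:**
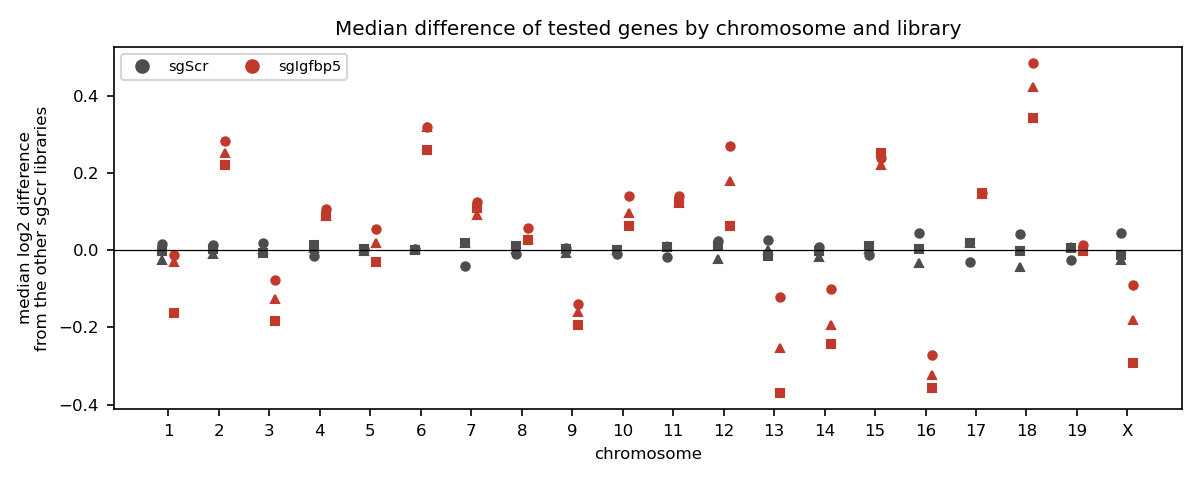
Median log2 difference of the tested genes of each chromosome from the mean of the (other) sgScr libraries, 1 symbol per library, with sgScr in dark grey and sgIgfbp5 in red. The sgIgfbp5 libraries lie highest on chromosome 18, at 0.341 to 0.483, and low on chromosome 16, at -0.356 to -0.272, while sgScr libraries stay near 0.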

How the data were processed

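RNA was extracted with TRIzol and poly(A)-selected stranded libraries were made, per the labels' protocols. The deposited CUUC-G count table holds an estimated count per gene and library, and a separate table holds TPM, both made by the authors. A count of 0 stood beside a TPM above 0 in 153 gene and library values. Salmon is named without a version or a counting step, per the submitters' processing notes. The strand setting used in counting is not given in the sources used here. Columns were matched to samples by name, with "mI" read as sgIgfbp5 by analogy with the human "hI" columns. Symbols came from the row names of the tumour table, which hold all 55858 gene identifiers.

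Estimated counts were rounded and 14553 genes passing filterByExpr were tested with edgeR 4.0.16 in R 4.3.3 (TMM scaling, robust quasi-likelihood F test, two-sided, Benjamini-Hochberg adjustment over all tested genes, threshold 0.05, replicate number not in the model); the script was tested on simulated data. Depth was 19210830 to 20729980 counts per library; intervals and the floor of 3 counts cover counting error only. Alternatives were DESeq2 1.42.0, other scalings and filters, limma 3.58.1 on log2(TPM + 1) or log2(TPM + 0.1), and each library left out.

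Named genes are Igfbp5, the 15 largest increases and decreases (average log2 CPM 2 or more, no overlap), the 10 largest by TPM in each direction, marked members of 79 lists, all members of lists of up to 12, and the 4 largest changes per direction in longer lists; some of these genes are not reported here. The groups, the lists and the marked members were chosen with earlier results of these data known. A list is described by counts and its median, with no test of the list.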

Additional observations from a re-analysis of the deposited data

How the results depend on the processing

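The counts of 5316 higher and 4989 lower genes stayed within 1.5 times under other scalings, filters and tools, which gave 4793 to 6043 higher and 3836 to 5592 lower genes; asking for a 2-fold difference left 2118 and 2441. Leaving out each library gave 4726 to 5177 higher and 4600 to 5358 lower genes, and Igfbp5 log2 fold changes of -2.31 to -1.77. Of 4331 values of 272 named genes under these alternatives, 4223 kept direction and side of the threshold. Of the others, 47 lost the call, 14 gained it and 47 had the opposite sign, in 25 genes. Not all calls lost under other scalings, filters and tools are named here. Of 2528 counts of list members, 2373 stayed within 1.5 times and 155 did not, and the balance of higher and lower members turned or tied in 9 of 79 lists. Calls of Egfr and Igf1 as lower were not kept in TPM: limma gave Egfr 0.05 and Igf1 0.09 on log2(TPM + 1), with or without the filter, and 0.05 and 0.11 on log2(TPM + 0.1). The other reversals concern genes that did not pass. On log2(TPM + 1) with or without the filter, limma gave Igf1r -0.07, Irs1 0.05, Cdkn2a 0.01, Col4a1 0.01, Ezh2 0.13, Mdm2 0.15 and Twist1 0.02; on log2(TPM + 0.1) these were -0.07, 0.06, 0.01, 0.01, 0.13, 0.15 and 0.02. Gli1 was -0.10 without the filter. Library size scaling gave Cdkn2a 0.08, Col4a1 0.05, Ezh2 0.04, Irs1 0.08 and Twist1 0.08. RLE factors and DESeq2 gave B2m -0.01 and -0.01 and Hoxa11 -0.04 and -0.05. With a library left out, B2m ranged from -0.05 to 0.11, Cdkn2a from -0.15 to 0.04, Hoxa11 from -0.10 to 0.01, Hoxb2 from -0.12 to 0.13, Irs1 from -0.20 to 0.15 and Twist1 from -0.13 to 0.02. The fitted change of 11 genes near 0 in 1 group moved by over 1.5 times with a library left out, most for Ebf3, from 7.24 to 10.84 without sgScr replicate 3. The cause of these changes was not tested. Deviations of same-numbered libraries from their group means had r of 0.0364, 0.0930 and -0.0817, and those of differently numbered libraries -0.144 to 0.129. With so few libraries this cannot settle whether the numbers mark a shared day or batch. With a replicate block 5155 genes were higher and 4882 lower, and Igfbp5 was -1.93. The calls of Cxcl12, Pcna, Slc29a1 and Cdkn1c were then lost (edgeR adjusted p = 0.0732, 0.0627, 0.0550 and 0.0652). For the likeness of groups, adding 0.5 CPM gave r of 0.888 between sgScr and sgIgfbp5 cells and 0.993 between sgScr cells and relapsed tumours. Control tumours then had r of 0.920 with sgIgfbp5 cells and 0.897 with sgScr cells. Igfbp5 had no value in limma with the filter on mean TPM, and depth limits it, at 8 to 51 counts per library.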

Other observations

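Of 38 tested receptors coupled to G proteins, 21 were lower, 12 higher and 5 did not pass, beside 34.3% lower and 36.5% higher among all genes. Bdkrb1 and Bdkrb2, the bradykinin receptors, went from 20.7, 24.0 and 24.5 to 0.252, 0.0984 and 0.0470 CPM and from 7.15 ± 1.22 to 0.180 ± 0.104 CPM (SD, n = 3). The endothelin receptor Ednra went from 35.8, 33.9 and 33.7 to 1.31, 1.33 and 1.13 CPM, and Ednrb, which had no count in sgScr, to 0.606, 1.03 and 0.611 CPM, at least 14.4-fold higher. Their ligand Edn1 was 5.60 ± 0.761 and 6.46 ± 1.12 CPM with overlapping groups. Of 25 tested ion channels, 12 were lower, 8 higher and 5 did not pass, a share of calls near that of all genes (70.8%). The calcium-activated potassium channel Kcnn4 fell from 23.2, 25.8 and 25.5 to 2.73, 2.36 and 2.58 CPM and the cation channel Trpv2 from 18.6, 18.6 and 21.8 to 2.12, 1.67 and 2.25 CPM.

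Adhesion molecules known from neurons moved both ways: of 23 tested, 11 were higher, 6 lower and 6 did not pass. Pcdh7 fell from 294, 267 and 260 to 69.3, 60.6 and 74.1 CPM, whereas Pcdh19 rose from 54.2, 36.2 and 38.7 to 157, 147 and 164 CPM and Chl1 from 1.51 ± 0.240 to 12.1 ± 1.497 CPM (SD, n = 3). Cytosolic ribosomal protein genes were higher in 28 of 52 cases, lower in 4 and did not pass in 20. Rpl12 stood out, at 57.6, 62.5 and 69.2 CPM in sgScr and 664, 723 and 608 CPM in sgIgfbp5, but such genes share reads with near-identical copies and the value is uncertain.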
